A study of Saccharomyces cerevisiae with 8 samples.

Results

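Yeast cultures given the inactive DHPM-thione, compound 11, were compared with cultures given only its solvent, DMSO. The comparison covers 4 of the 8 libraries of the series, chosen by their labels: 2 biological replicates treated with 20 µM of the thione and 2 treated with DMSO, all for 6 h. DHPM-thiones are dihydropyrimidine-thiones, and 11 is the one the labels call inactive. Log-phase cultures of Saccharomyces cerevisiae grew at 30 °C in CSM-galactose, a synthetic medium with galactose as the sugar. The strain label of all groups, DMSO included, is W303 with pdr1 and pdr3 deleted. The other 4 libraries come from cultures given the active thione 10{3,3,1} at 20 µM or clioquinol (CQ, a metal-binding 8-hydroxyquinoline) at 0.8 µM, with 2 libraries each. The growth protocol instead calls the yeast wild-type and states the concentrations in mM; the strain and concentration labels were used here. All values therefore describe cells without the gene products of PDR1 and PDR3.

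Yeast exports foreign compounds through 2 kinds of membrane pump. ABC transporters use ATP, and the drug-proton antiporters of the major facilitator superfamily, the DHA1 and DHA2 families, use the proton gradient. Pdr1 and Pdr3 are zinc-cluster transcription factors that switch on many of these pumps, and related factors such as Yrr1, Yrm1 and Stb5 act beside them. A further system that appears below is the phosphate regulon, in which Pho4 turns on phosphate transporters and phosphatases when phosphate is short.

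The inactive thione libraries held 14187145 and 13404005 counts, and the DMSO libraries held 19021672 and 12839597. PDR1 and PDR3, deleted per the strain label, had 0 counts in all 8 libraries. Levels are given as CPM, the usual unit of counts scaled to a common library size. They compare samples for 1 gene, not genes with each other, since they are not divided by gene length. A limit of 3 counts is 0.211 and 0.224 CPM in the inactive thione libraries and 0.158 and 0.234 CPM in the DMSO libraries, and it covers counting error only. On the second principal component of log2 CPM, with 17.1% of the variance, inactive thione replicate 1 stood at −2.06 and replicate 2 at −19.3. Both lay below the DMSO libraries, at 22.9 and 11.1, and the 2 inactive thione libraries were farther apart than the 2 DMSO libraries. The active thione libraries stood at 2.34 and −14.4 there, so this shift was not particular to the inactive thione. Replicate 2 lay below replicate 1 with DMSO and with both thiones, but not with CQ. The first component, with 60.2%, did not part inactive thione (−14.1 and −12.8) from DMSO (−12.8 and −11.8).

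After the inactive thione, 9 of 5696 tested features passed an adjusted p of 0.05 against DMSO, which is 0.158% of those tested. Of these, 8 were higher (0.140%) and 1 was lower (0.0176%). They were AZR1, GIT1, YOR1, PHO89, PIR3, CRG1, SPL2 and ADH5 among the higher ones and FMP48 as the lower one. The test was the quasi-likelihood test of edgeR with Benjamini-Hochberg adjustment over all features. The words rise and fall are kept for genes that passed it. At an unadjusted p under 0.05, 498 features were higher (8.74%) and 241 lower (4.23%), 13.0% in all. DESeq2 called 84 of the 5475 features to which it gave an adjusted p, or 1.53%, with 69 higher (1.26%) and 15 lower (0.274%). Without DMSO replicate 1 or without DMSO replicate 2 the edgeR count was 1, and the gene left in both cases was AZR1. It was 3 without inactive thione replicate 2, 4 when 1 active thione library was left out and 18 when 1 CQ library was left out, whichever of the 2 it was. Over all tested features the median log2 fold change was 0.03, and 53.9% were above 0.

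**Figure D1:**
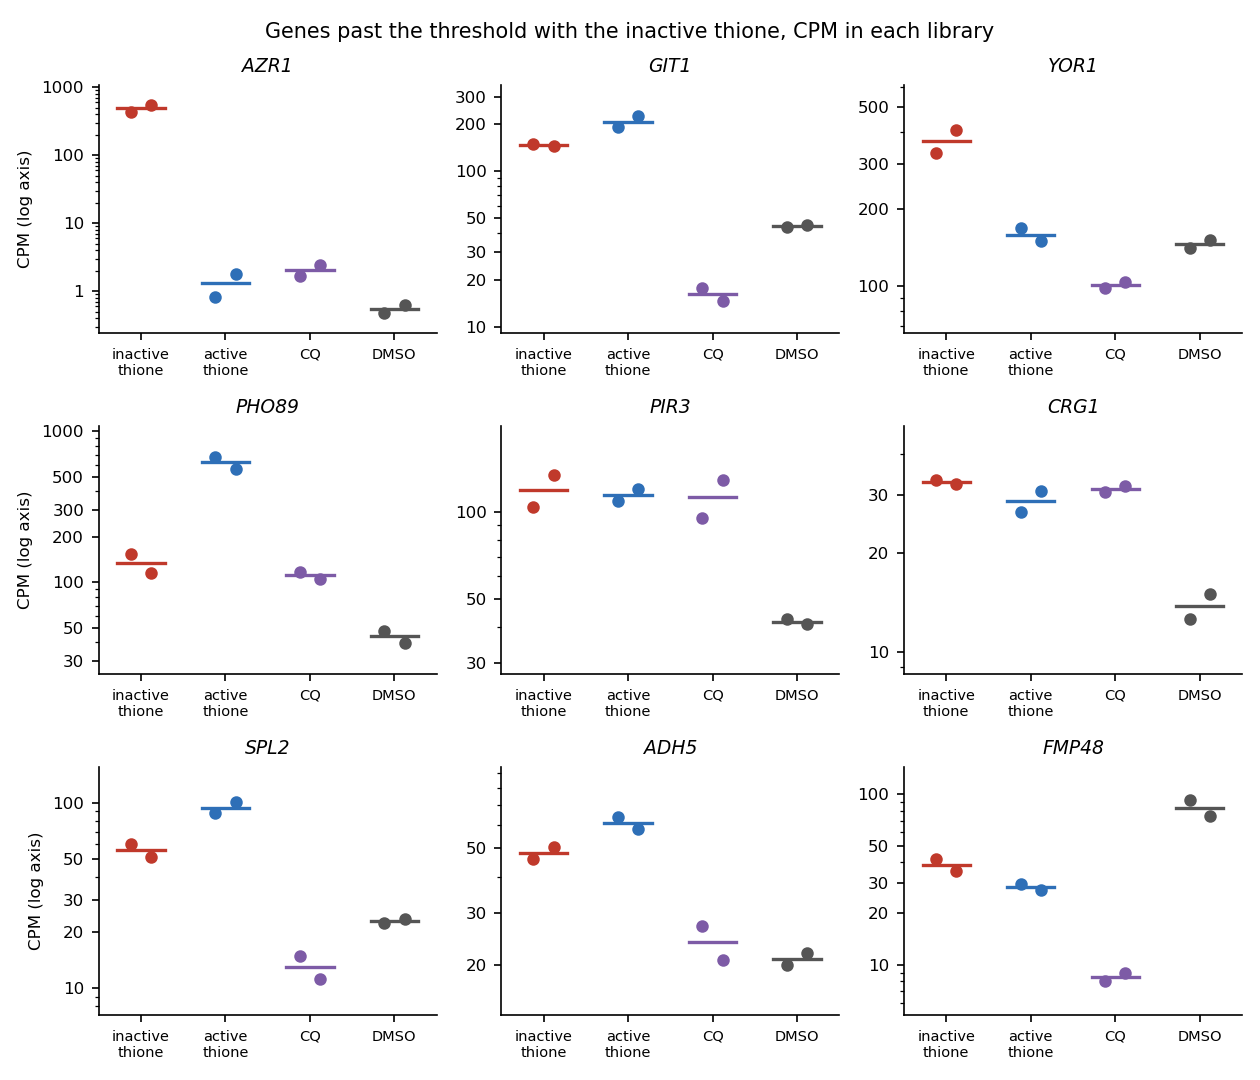
Level in each library of the 9 genes that passed the threshold, in CPM on a log axis; points are libraries and bars are the means of 2. Both inactive thione libraries lie above both DMSO libraries for 8 genes and below them for FMP48. AZR1 stands at 428 and 552 CPM with the inactive thione and at most 2.41 CPM in the other 6 libraries.

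Among drug pumps, AZR1 and YOR1 rose and no other tested DHA1, DHA2 or ABC gene passed the threshold. AZR1 (YGR224W) encodes a DHA2 antiporter known for resistance to azole drugs and acetic acid. It lies at chrVII:942806-944647 on the plus strand of sacCer3, a span from start to stop codon. It had 5976 and 7645 counts in the inactive thione libraries, against 9 and 8 counts in the DMSO libraries. In CPM these were 428 and 552 with the inactive thione and 0.486 and 0.625 with DMSO. The DMSO counts are above the limit of 3, so the low level is a measured one. The 2 groups were separated by more than 2 orders of magnitude in every library, with a log2 fold change of 9.79 ± 0.35 (SE), a 95% interval of 9.01 to 10.6 and an adjusted p of 9.70e-07. AZR1 was the 1 gene that passed in each of the 8 fits that left out 1 library, with a highest adjusted p of 5.85e-05.

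YOR1 (YGR281W, chrVII:1052824-1057257, plus strand) encodes an ABC transporter of the plasma membrane that exports oligomycin and other organic anions. It stood at 333 and 409 CPM in the inactive thione libraries and at 142 and 151 CPM in the DMSO libraries. Unlike AZR1, YOR1 was well expressed without the compound. Its rise was 2.53-fold, a log2 fold change of 1.34 ± 0.15 with an interval of 1.00 to 1.68 and an adjusted p of 0.0120. Leaving out 1 library ended the YOR1 call in 3 cases: the adjusted p was 0.104 without inactive thione replicate 2, 0.273 without DMSO replicate 1 and 0.144 without DMSO replicate 2.

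The 300 bases before the start codons of AZR1 and YOR1 are shown because these are the pumps that rose. They were read from the RefSeq R64 genome, which is the sacCer3 build. They run 5′ to 3′ on the gene's strand, and the capitals mark the letters TCCGCG.
AZR1, chrVII:942506-942805, plus strand: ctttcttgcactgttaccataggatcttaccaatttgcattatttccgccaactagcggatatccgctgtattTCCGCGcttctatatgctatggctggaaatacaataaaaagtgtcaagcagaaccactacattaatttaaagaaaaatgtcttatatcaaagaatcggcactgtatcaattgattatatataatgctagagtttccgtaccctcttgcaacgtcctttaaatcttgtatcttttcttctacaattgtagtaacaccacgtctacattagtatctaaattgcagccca
YOR1, chrVII:1052524-1052823, plus strand: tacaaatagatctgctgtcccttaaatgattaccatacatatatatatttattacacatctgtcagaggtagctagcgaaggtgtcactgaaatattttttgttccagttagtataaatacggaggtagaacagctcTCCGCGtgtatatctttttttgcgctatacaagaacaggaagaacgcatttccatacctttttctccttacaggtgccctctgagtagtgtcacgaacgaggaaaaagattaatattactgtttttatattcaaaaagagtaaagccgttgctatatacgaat
TCCGCG was singled out after both windows had been read. It begins 227 bases before the AZR1 start codon and 163 bases before the YOR1 start codon. On either strand it occurs in 205 of 6001 such windows, 3.42%. AZR1 and YOR1 hold it because it was chosen from them, so a count over the 9 genes that passed is no test of enrichment. Among the rest of the 9, SPL2 holds it 48 bases before the start codon and ADH5 237 bases before it. In both it lies on the opposite strand, as CGCGGA. Neither pump window holds the full core of the Pdr1/Pdr3 element, searched as CCGCGG or CCGTGG on both strands, which 5.00% of windows hold. TCCGCG is not unrelated to that core: it ends in CCGCG, with which CCGCGG begins. The next base is C in AZR1 and T in YOR1, where CCGCGG has G. The Yap1 element TTACTAA, present in 7.82% of windows, is in neither window as well. A match describes letters in the window and was not tested as a binding site.

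The other drug-proton antiporters stayed within a narrow range. Of the 12 DHA1 genes and 8 tested DHA2 genes, 19 other than AZR1 had log2 fold changes from −0.65 for AMF1 to 0.82 for TPO4, with a lowest adjusted p of 0.217. TPO4, a polyamine exporter, stood at 37.4 and 49.9 CPM with the inactive thione and 23.9 and 25.5 CPM with DMSO. Its edgeR adjusted p was 0.217 and its DESeq2 adjusted p 0.0280. AMF1 was lowly expressed, with 14 and 13 counts in the inactive thione libraries and 29 and 19 in the DMSO libraries. Its level was 1.00 and 0.939 CPM with the inactive thione and 1.57 and 1.48 CPM with DMSO. FLR1, an exporter of fluconazole and benomyl, had 29.4 and 29.9 CPM with the inactive thione and 34.4 and 27.4 CPM with DMSO, which overlap.

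Of 15 tested ABC transporters, YOR1 was the 1 that passed, beside 0.158% of all features, and the median log2 fold change of the group was 0.02. SNQ2, an ABC pump for 4-nitroquinoline oxide, and PDR5, the main azole exporter of this family, were looked up after the values had been seen. SNQ2 had 255 and 283 CPM with the inactive thione and 255 and 280 CPM with DMSO, a log2 difference of 0.01 ± 0.14. PDR5 stood at 153 and 179 CPM with the inactive thione and 132 and 137 CPM with DMSO. These PDR5 libraries do not overlap, but the log2 difference was 0.30 ± 0.14 with an adjusted p of 0.390. Among the 16 tested genes of the Pdr1/Pdr3 regulon, 1 rose, again YOR1, and 0 fell, beside 0.140% and 0.0176% of all features. Their median log2 fold change was 0.19. At an unadjusted p under 0.05, 3 were higher and 1 lower, beside 8.74% and 4.23%. DESeq2 called 2 higher and 0 lower, beside 1.26% and 0.274%.

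No gene for a drug regulator passed. The 14 tested ones had log2 fold changes from −0.31 for STB5 to 0.28 for UPC2, and the lowest adjusted p was 0.407. At an unadjusted p under 0.05 the count of drug regulators was 0, beside 13.0% of all features, and DESeq2 called 0, beside 1.53%. YRR1, whose product acts on SNQ2 and YOR1, had 25.6 and 31.0 CPM with the inactive thione and 26.6 and 27.5 CPM with DMSO. YRM1, a related zinc-cluster gene whose difference changed sign with the scaling, had 65.7 and 76.7 CPM with the inactive thione and 69.6 and 70.9 CPM with DMSO. For both, the inactive thione libraries spanned the DMSO libraries. Transcript levels say nothing of the activity of these proteins.

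**Figure D2:**
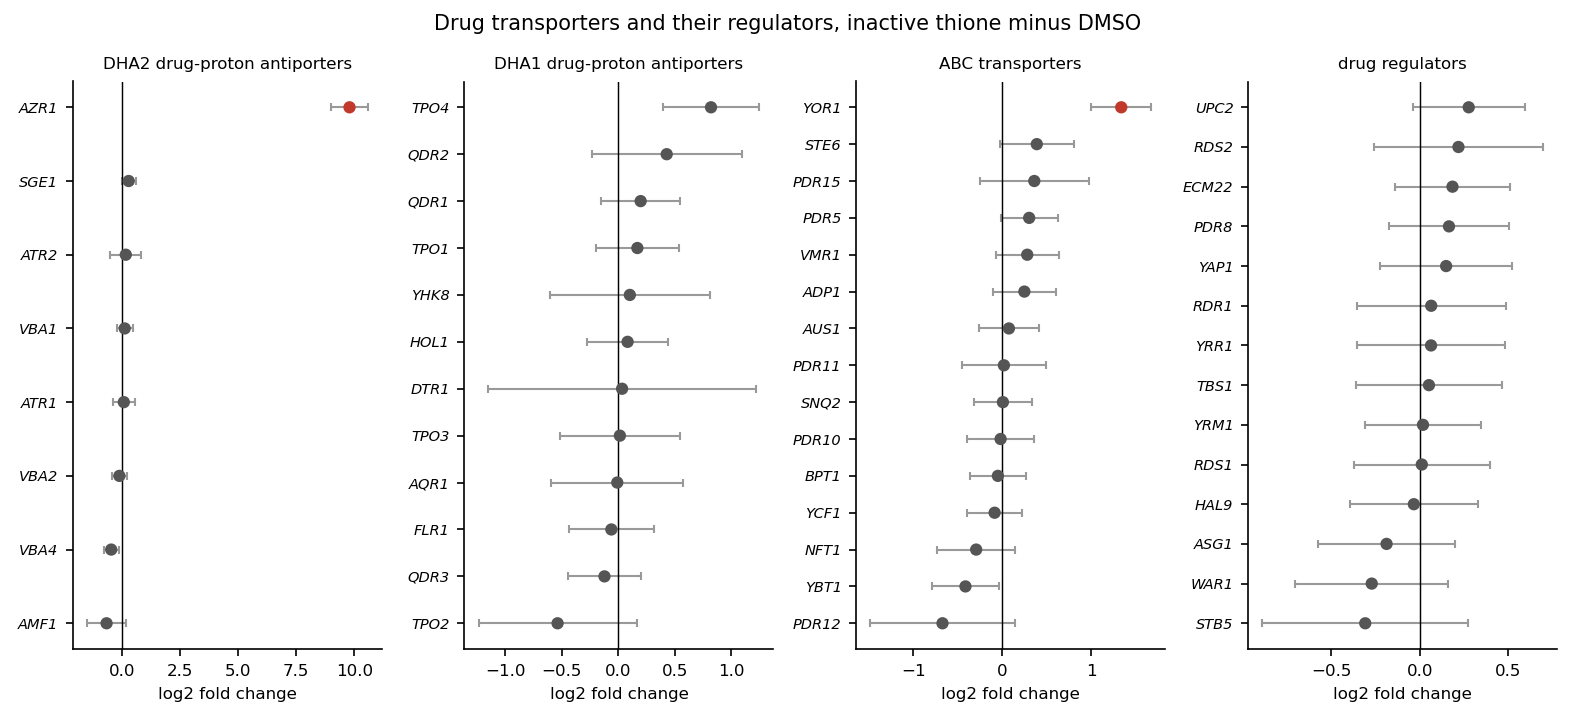
Log2 fold change, inactive thione minus DMSO, with its 95% interval for every tested DHA2, DHA1, ABC and drug regulator gene; the horizontal scales differ between panels, and red marks an adjusted p under 0.05. AZR1 at 9.79 and YOR1 at 1.34 are the red points, and the drug regulators lie between −0.31 and 0.28.

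The genes beside AZR1 and YOR1 were looked at to see whether they moved too. HSV2 encodes a phosphoinositide-binding protein of autophagy; it lies at chrVII:940869-942215 on the minus strand, so that its start codon faces that of AZR1 across 590 bases. It had 28.8 and 35.6 CPM with the inactive thione and 14.5 and 19.5 CPM with DMSO. These libraries do not overlap, and the log2 difference was 0.93 ± 0.22, but the edgeR adjusted p was 0.237 and the DESeq2 adjusted p 0.0236. Against the active thione, with 16.6 and 21.7 CPM, the HSV2 difference was 0.75 ± 0.22 with an edgeR adjusted p of 0.801. AMA1, 497 bases past the end of AZR1, had a log2 difference of −0.04 from DMSO. For YOR1 the nearest neighbours were PXR1 at 0.08 and BGL2 at 0.26, neither past the threshold. The strand rule of the counting is not stated, so reads of overlapping or antisense features may be mixed in.

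Setting the inactive thione against the active one at the same dose and time shows where these 2 related compounds differ. The labels give both only as code names. Of 5696 features, 7 passed, which is 0.123%. AZR1 and YOR1 were higher with the inactive thione (2 features, 0.0351%), and PHO89, PHO5, FRE1, CTR1 and TIS11 were lower (5 features, 0.0878%). DESeq2 called 27 (0.474%), 12 higher (0.211%) and 15 lower (0.263%). This was the 1 pair of compounds compared. AZR1 had 428 and 552 CPM with the inactive thione and 0.838 and 1.79 CPM with the active thione, from 10 and 26 counts. That difference was 8.50 ± 0.32 on the log2 scale, with an interval of 7.78 to 9.21 and an adjusted p of 1.64e-06. YOR1 had 333 and 409 CPM with the inactive thione and 168 and 150 CPM with the active thione. Its difference was 1.22 ± 0.15, with an interval of 0.88 to 1.56 and an adjusted p of 0.0113. YOR1 lost this call without active thione replicate 1, at an adjusted p of 0.102, without active thione replicate 2, at 0.255, and without inactive thione replicate 2, at 0.141. In a fit of the 4 compared libraries alone it was 0.0648.

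FRE1, CTR1 and TIS11, named because they passed this comparison, serve iron and copper uptake. FRE1 is a ferric and cupric reductase, CTR1 the high-affinity copper transporter and TIS11 an mRNA-decay factor induced when iron is short. FRE1 had 17.5 and 15.03 CPM with the inactive thione and 49.5 and 49.2 CPM with the active thione, beside 24.1 and 21.2 CPM with DMSO. CTR1 had 24.8 and 23.2 CPM with the inactive thione and 70.9 and 81.2 CPM with the active thione, beside 23.5 and 25.9 CPM with DMSO. TIS11 was low, at 1.503 and 2.53 CPM with the inactive thione and 9.80 and 14.8 CPM with the active thione, beside 1.84 and 2.42 CPM with DMSO. In all 3 the inactive thione libraries lay below the active thione libraries, and for CTR1 and TIS11 they overlapped DMSO. The inactive minus active log2 differences were −1.60 ± 0.15 for FRE1, −1.66 ± 0.16 for CTR1 and −2.61 ± 0.29 for TIS11. Without inactive thione replicate 2 the adjusted p of FRE1 and CTR1 was 0.0520, and TIS11 had 0.0557 without active thione replicate 2, 0.100 without inactive thione replicate 1 and 0.0616 in a fit of the 4 compared libraries alone. Against DMSO, FRE1 had a log2 fold change of −0.48 with an adjusted p of 0.344 under the inactive thione.

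**Figure D3:**
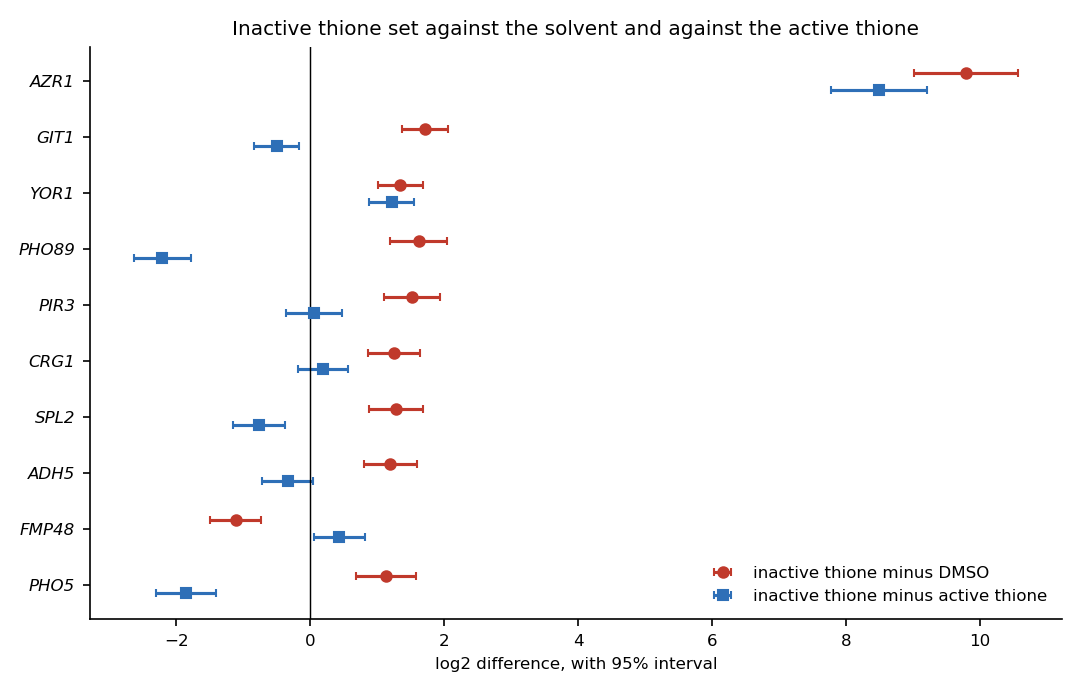
Log2 difference with its 95% interval for the inactive thione minus DMSO (circles) and minus the active thione (squares), in the 9 genes that passed and PHO5. AZR1 and YOR1 are above 0 in both; PHO89 and PHO5 are above 0 against DMSO and below 0 against the active thione; the interval of PIR3 against the active thione spans 0.

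In the list of phosphate uptake and scavenging genes, some members rose after the inactive thione and most did not pass. Of 19 tested members, 3 rose, 0 fell and 16 did not pass, beside 8 rises among all 5696 features (0.140%). The 3 were GIT1, PHO89 and SPL2. The list was drawn up with earlier results of these data known, so its direction is not independent evidence. Its median log2 fold change was 0.59, beside 0.03 over all features, and in 11 of 19 members both inactive thione libraries were above both DMSO libraries, beside 32.2% of all features. DESeq2 called 7 of the 19 higher and 0 lower, beside 1.26% and 0.274% of all features. The edgeR count of 3 became 1 without inactive thione replicate 1, 2 without inactive thione replicate 2 or active thione replicate 1 or 2, and 0 without DMSO replicate 1 or without DMSO replicate 2.

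GIT1 (YCR098C, chrIII:297049-298605) encodes the permease that takes up glycerophosphoinositol. It stood at 149 and 144 CPM in the inactive thione libraries and 43.8 and 45.1 CPM in the DMSO libraries, with both pairs close together. The rise was 3.29-fold, 1.72 ± 0.15 on the log2 scale with an adjusted p of 0.0024. PHO89 (YBR296C, chrII:796798-798522) encodes the sodium-dependent phosphate transporter of the plasma membrane. It had 154 and 115 CPM with the inactive thione and 47.6 and 39.7 CPM with DMSO, a log2 fold change of 1.62 ± 0.19 with an adjusted p of 0.0127. The 2 inactive thione libraries of PHO89 differ more from each other than those of GIT1 but stay clear of DMSO. GIT1 had an adjusted p of 0.0918 without DMSO replicate 1 and 0.0708 without DMSO replicate 2. The values for PHO89 were 0.147 and 0.144, and 0.0773 without inactive thione replicate 1.

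SPL2 (YHR136C, chrVIII:374654-375100, minus strand) encodes a small protein that holds back low-affinity phosphate uptake. It had 60.3 and 50.9 CPM with the inactive thione and 22.5 and 23.5 CPM with DMSO, which do not overlap. The rise was 2.42-fold, 1.27 ± 0.18 on the log2 scale with an adjusted p of 0.0347, and the call was lost without any 1 of the inactive thione, active thione or DMSO libraries, at 0.0912 to 0.561. Its upstream window is shown because 3 copies of the Pho4 core lie in it, here in capitals, read 5′ to 3′ from RefSeq R64.
SPL2, chrVIII:375101-375400, minus strand: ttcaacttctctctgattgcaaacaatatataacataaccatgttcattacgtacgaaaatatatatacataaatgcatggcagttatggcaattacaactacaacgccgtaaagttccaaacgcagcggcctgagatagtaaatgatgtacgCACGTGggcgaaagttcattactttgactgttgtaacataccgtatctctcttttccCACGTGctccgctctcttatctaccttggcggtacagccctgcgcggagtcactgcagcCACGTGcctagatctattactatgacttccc
The copies of CACGTG begin 147, 90 and 31 bases before the start codon. CACGTG or CACGTT, searched on both strands, occurs in 12.4% of the 6001 windows. The window of PHO5 holds 1, 253 bases before the start codon, and those of GIT1 and PHO89 hold none. The letters were matched only within 300 bases, so nothing follows for sites farther upstream.

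PHO5 (YBR093C, chrII:429548-430951), the secreted acid phosphatase, had 212 and 142 CPM with the inactive thione and 89.1 and 71.8 CPM with DMSO. Its log2 fold change of 1.13 ± 0.20 had an adjusted p of 0.0830 in edgeR and 1.3e-04 in DESeq2. PHO11 and PHO12 are near-identical to each other and related to PHO5, so reads may have been split among them. PHO84, the high-affinity phosphate transporter, had 3282 and 2706 CPM with the inactive thione and 2017 and 2145 CPM with DMSO, a log2 difference of 0.53 ± 0.20 and an adjusted p of 0.373. PHO81, an inhibitor of the Pho80-Pho85 kinase, and VTC2, VTC3 and VTC4 of the polyphosphate polymerase had log2 differences from −0.03 to 0.13, with overlapping libraries.

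With the active thione the phosphate genes stood higher still in several cases. PHO89 had 154 and 115 CPM with the inactive thione and 678 and 566 CPM with the active thione, a log2 difference of −2.21 ± 0.19 with an interval of −2.64 to −1.78 and an adjusted p of 0.00176. PHO5 had 212 and 142 CPM with the inactive thione and 649 and 632 CPM with the active thione, a difference of −1.86 ± 0.20 with an adjusted p of 0.00499. The PHO89 call held in all 8 fits that left out 1 library. The PHO5 call was lost without active thione replicate 1, at 0.0580, without active thione replicate 2, at 0.0557, and without inactive thione replicate 2, at 0.0520. GIT1 differed by −0.50 with an interval of −0.84 to −0.17 and SPL2 by −0.76 with an interval of −1.16 to −0.37. Neither passed in edgeR, at 0.801 and 0.512, while DESeq2 gave SPL2 0.0491.

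The remaining genes that passed belong to the cell wall, to methyl transfer, to alcohol metabolism and to mitochondria. PIR3 (YKL163W, chrXI:144401-145378), a covalently bound cell wall protein, had 105 and 135 CPM with the inactive thione and 42.6 and 40.9 CPM with DMSO. That was a rise of 2.86-fold, 1.52 ± 0.19 on the log2 scale with an adjusted p of 0.0177. CRG1 (YHR209W, chrVIII:519437-520312), a methyltransferase known for resistance to cantharidin, had 33.2 and 32.4 CPM with the inactive thione and 12.6 and 15 CPM with DMSO. Its log2 fold change was 1.25 ± 0.17 with an adjusted p of 0.0347. In both genes the inactive thione libraries were clear of DMSO. PIR3 was lost without DMSO replicates 1 and 2, at 0.273 and 0.150, without active thione replicates 1 and 2, at 0.0771 and 0.0740, and without inactive thione replicate 2, at 0.182. CRG1 was lost without any 1 of the inactive thione, active thione or DMSO libraries, at 0.0912 to 0.625, and in a fit of the 4 compared libraries alone, at 0.0583.

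ADH5 (YBR145W, chrII:533762-534817), an alcohol dehydrogenase isozyme, had 45.9 and 50.4 CPM with the inactive thione and 20.1 and 21.95 CPM with DMSO. It rose 2.29-fold, 1.20 ± 0.18 on the log2 scale with an adjusted p of 0.0421. FMP48 (YGR052W, chrVII:593596-594705), which encodes a putative kinase found with mitochondria, had 41.9 and 35.3 CPM with the inactive thione and 91.9 and 74.9 CPM with DMSO. It was the 1 gene that fell, 2.16-fold lower or −1.11 ± 0.17 on the log2 scale, with an adjusted p of 0.0499, just inside the threshold. ADH5 and FMP48 were likewise lost without any 1 of the inactive thione, active thione or DMSO libraries. Their adjusted p was then 0.104 to 0.644 for ADH5 and 0.108 to 0.720 for FMP48, and FMP48 had 0.0712 in a fit of the 4 compared libraries alone.

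These 4 genes were also set against the active thione. The inactive thione libraries overlapped the active thione libraries for PIR3, lay above them for CRG1 and FMP48 and below them for ADH5. PIR3 differed from the active thione by 0.06 on the log2 scale with an interval of −0.36 to 0.47. CRG1 differed by 0.19 with an interval of −0.19 to 0.57. The ADH5 difference was −0.34 with an interval of −0.72 to 0.04, and the FMP48 difference 0.43 with an interval of 0.05 to 0.82. None of these passed after adjustment, and differences up to the bounds of each interval remain possible. CQ was given at another dose, so its values only stand beside these. Its libraries had 95.3 and 130 CPM of PIR3, 30.6 and 31.9 CPM of CRG1, 27.2 and 20.8 CPM of ADH5 and 8.03 and 8.92 CPM of FMP48. For AZR1 they had 1.67 and 2.41 CPM, and for YOR1 98.7 and 104 CPM.

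Beyond single genes, cell wall, stress and carbohydrate-reserve lists lay above the median of all features. Of 20 tested genes of cell wall integrity, the pathway in which the kinase Slt2 answers wall damage, 1 rose, PIR3, and 0 fell. Their median log2 fold change was 0.57, beside 0.03 over all features. Against the same DMSO libraries that median was 0.41 with the active thione and 0.62 with CQ. In 16 of the 20 both inactive thione libraries were above both DMSO libraries, beside 32.2% of all features, and 13 had an unadjusted p under 0.05 upward and 0 downward, beside 8.74% and 4.23%. DESeq2 called 6 of them higher, beside 1.26%. CWP1, a cell wall mannoprotein, had 184 and 255 CPM with the inactive thione and 71.8 and 106 CPM with DMSO, a log2 difference of 1.30 ± 0.23 with an adjusted p of 0.0904. NCW2, another wall protein, had 257 and 247 CPM with the inactive thione and 137 and 120 CPM with DMSO, with an adjusted p of 0.0830. SLT2 itself had 211 and 209 CPM with the inactive thione and 127 and 123 CPM with DMSO, with an adjusted p of 0.194. Groups did not overlap in any of the 3. The count of 1 was 0 without inactive thione replicate 2, without active thione replicate 1 or 2 and without DMSO replicate 1 or 2, and it was 3 without CQ replicate 1 or 2.

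No member of the general stress list (Msn2/Msn4 targets, 26 tested) or of the trehalose and glycogen list (17 tested) passed in edgeR. Their medians were 0.57 and 0.67 with the inactive thione. Against the same DMSO libraries the medians were 0.08 and 0.44 with the active thione and 0.65 and 0.77 with CQ. At an unadjusted p under 0.05, 8 and 7 members were higher and 0 lower in either list, beside 8.74% and 4.23% of all features. DESeq2 called 3 and 2 higher, beside 1.26% of all features. In the stress list edgeR called 2 without inactive thione replicate 1 and 1 when either CQ library was left out. RTS3, a member of the stress list and linked to protein phosphatase 2A, came nearest, at 48.0 and 85.6 CPM with the inactive thione and 15.4 and 22.6 CPM with DMSO. Its log2 difference was 1.82 ± 0.29 with an adjusted p of 0.0571. GSY2, glycogen synthase, had 133 and 203 CPM with the inactive thione and 69.5 and 105 CPM with DMSO, with an adjusted p of 0.298. HSP12, a membrane-protecting stress protein, had 101 and 106 CPM with the inactive thione and 97.4 and 124 CPM with DMSO, which overlap. Replicate 2 was the higher replicate for RTS3 and GSY2 with the inactive thione and with DMSO. The summed level of either list was also higher in replicate 2 of every group, so this was not particular to the inactive thione.

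Growth and sterol genes lay on the lower side, with no member past the threshold in edgeR. Of 62 ribosome biogenesis genes, 58 had a log2 fold change below 0 and 4 above, with a median of −0.35, and in 52 both inactive thione libraries were below both DMSO libraries, beside 26.4% of all features. At an unadjusted p under 0.05, 16 were lower and 0 higher, beside 4.23% and 8.74% of all features, and DESeq2 called 0. Their summed level was 33925 and 26648 CPM with the inactive thione and 41053 and 37772 CPM with DMSO. The 70 cytosolic ribosomal protein genes had a median of −0.25. In 27 of the 70 both inactive thione libraries were below both DMSO libraries, beside 26.4% of all features. At an unadjusted p under 0.05, 5 were lower and 0 higher, beside 4.23% and 8.74%, and DESeq2 called 0. Of 27 ergosterol synthesis genes, 12 were lower and 1 higher at an unadjusted p under 0.05, beside 4.23% and 8.74% of all features. DESeq2 called 4 lower, ERG5, HMG1, ERG13 and CYB5, beside 0.274% of all features. HMG1, a reductase at the rate-limiting step of sterol synthesis, had 633 and 384 CPM with the inactive thione and 1330 and 931 CPM with DMSO, with an edgeR adjusted p of 0.279. CYB5, cytochrome b5, had 379 and 177 CPM with the inactive thione and 657 and 523 CPM with DMSO, with an edgeR adjusted p of 0.344. Replicate 2 was the lower library for HMG1 and CYB5 with the inactive thione and with DMSO. Against the same DMSO libraries the ribosome biogenesis, ribosomal protein and ergosterol medians were −0.34, −0.09 and −0.12 with the active thione. With CQ those medians were 0.10, −0.14 and −1.12.

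Metal-response lists held no gene past the threshold against DMSO. Among 34 tested genes of the Aft1/Aft2 iron regulon, the main set for iron uptake, the median log2 fold change was −0.06. At an unadjusted p under 0.05, 4 were higher and 4 lower, beside 8.74% and 4.23% of all features. DESeq2 called 1 of the 34 lower, HMX1, a heme oxygenase, beside 0.274% of all features. HMX1 had 72.5 and 44.1 CPM with the inactive thione and 142 and 102 CPM with DMSO. FIT2, a cell wall mannoprotein that retains siderophores, had 8.02 and 10.4 CPM with the inactive thione and 7.67 and 8.28 CPM with DMSO, which overlap. FET3, the multicopper oxidase of iron uptake, had 239 and 228 CPM with the inactive thione and 285 and 276 CPM with DMSO, with an adjusted p of 0.433. The 6 Mac1 copper uptake genes had a median of 0.12. At an unadjusted p under 0.05, 1 was higher and 1 lower, beside the same 8.74% and 4.23%, and DESeq2 called 0. Among 22 Zap1 zinc genes the median was 0.12, with 5 higher and 3 lower unadjusted, beside the same 8.74% and 4.23%. DESeq2 called 1 of the 22 higher, INO1, beside 1.26% of all features. ZRT1, the high-affinity zinc transporter, had 48.0 and 36.3 CPM with the inactive thione and 34.9 and 32.3 CPM with DMSO, with an adjusted p of 0.406.

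Iron-using enzymes (22 tested, median 0.04) and the respiratory chain with ATP synthase (36 tested, median −0.03) also had no edgeR call. DESeq2 called 1 lower in the first list, beside 0.274% of all features, and 1 higher in the second, beside 1.26%. CYC1, cytochrome c, had 121 and 98.6 CPM with the inactive thione and 111 and 114 CPM with DMSO. With 2 libraries a group these values set no limit on small shifts. In simulated data of this size, 100 features were changed 2-fold and 100 were changed 4-fold, and 78% and 97% of them were recovered. Of the unchanged simulated features, 0.291% were called. The adjusted p depends on how many features change. In the real data 9 passed, 0.158% of those tested, so the simulated shares may not hold there.

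**Figure D4:**
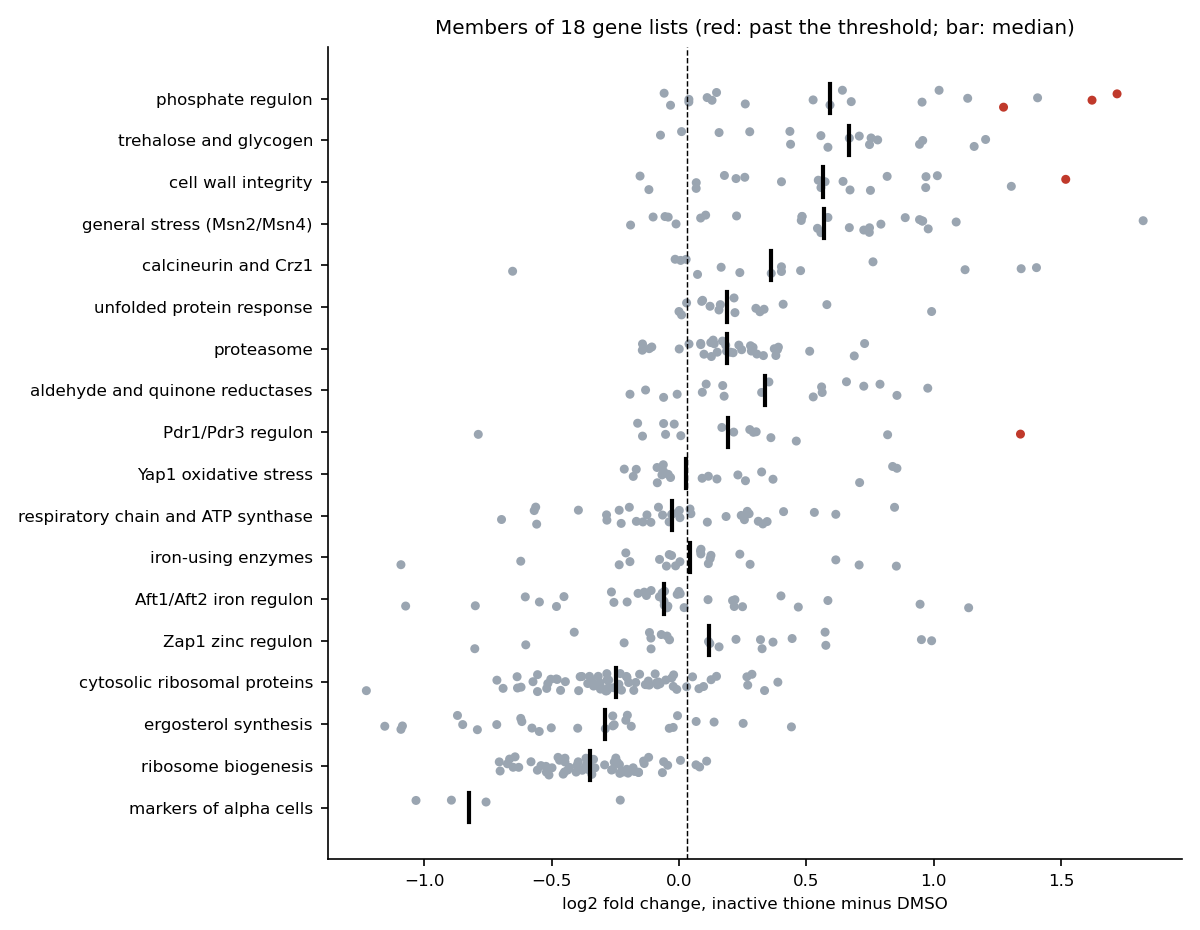
Log2 fold change, inactive thione minus DMSO, of each tested member of 18 gene lists; red points passed the threshold, bars are list medians and the dashed line is the median of all features at 0.03. Phosphate, trehalose and glycogen, cell wall and stress lists have medians of 0.57 to 0.67, and ribosome biogenesis and sterol lists have medians of −0.35 and −0.29.

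Markers of yeast cell types and states were followed beside these lists. All 4 alpha-cell markers had both inactive thione libraries below both DMSO libraries, beside 26.4% of all features. In edgeR 0 passed, while DESeq2 called 1 lower, SAG1, beside 0.274% of all features. Against the same DMSO libraries the marker median was −0.82 with the inactive thione, −0.71 with the active thione and −1.97 with CQ. Their summed level was 1095 and 1063 CPM with the inactive thione and 1844 and 1503 CPM with DMSO. The 3 tested a-cell markers summed to 30.3 and 34.3 CPM with the inactive thione and 26.6 and 25.8 CPM with DMSO. The labels do not give the mating type. In each of these libraries the alpha-cell sum stood far above the a-cell sum, although CPM is not divided by gene length. The alpha-cell markers thus appear to be those of the cultures' own type. None of the 6 tested stationary-phase markers passed, with sums of 112 and 115 CPM with the inactive thione and 95.6 and 95.9 CPM with DMSO. The 7 sporulation markers summed to 74.4 and 64.8 CPM with the inactive thione and 57.0 and 55.2 CPM with DMSO. What part such shifts have in the gene results was not tested, and in bulk RNA fewer cells of a kind and less RNA per cell cannot be told apart.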

How the data were processed

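RNA from 8 yeast cultures, 2 for each of 4 groups, was sequenced. Hot acid phenol gave the total RNA, and PrepX kits the libraries, per the labels' protocols. The authors deposited raw read counts per feature for each library, and beside them a normalized signal that was not used. The build was sacCer3, and the tools named are HTSeq, DESeq, TopHat and TopHat2 2.1.1, per the submitters' processing notes; annotation and strand rule: not given in the sources used here. RefSeq R64 names 6076 of 7122 features.

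The two-sided quasi-likelihood test (edgeR 4.0.16, R 4.3.3) was run on the raw counts after TMM scaling and filterByExpr, which kept 5696 features. A single fit of all 8 libraries, with a term for each group, shared the estimate of the spread. P-values were adjusted by Benjamini-Hochberg over all tested features, with a threshold of 0.05. SE is the log2 fold change over the square root of F. DESeq2 1.42.0, other scalings and filters, a replicate term and left-out libraries were alternatives. Replicate pairs differed by more than counting noise. The chi-square per degree of freedom was 45.2 with the inactive thione, 22.9 with DMSO, 54.3 with the active thione and 103 with CQ. The p-values rest on a spread shared over all 8 libraries, not on the inactive thione and DMSO cultures alone. Tested on simulated counts, the fit recovered 78% of 2-fold changes and called 0.291% of unchanged features. These shares may not hold in the real data.

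Members and 40 gene lists were chosen with earlier results of these data known. All genes that passed against DMSO were named, with up to 4 genes of each list with 2 or more calls, every tested DHA1, DHA2 and drug regulator gene by value or range, PDR1, PDR3, and the 5 genes closest to AZR1. Other named genes were chosen after their values were seen.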

Additional observations from a re-analysis of the deposited data

Results flagged for a closer look

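Against the active thione at the same dose and time, 7 genes differed by a test of the difference itself, and each is given as inactive minus active on the log2 scale. The largest was AZR1 at 8.50, with counts of 5976 and 7645 in the inactive thione libraries and 10 and 26 in the active thione libraries. YOR1, the ABC pump, differed by 1.22. On the other side were PHO89 at −2.21 and PHO5 at −1.86, which were higher with the active thione while PHO89 also rose with the inactive one against DMSO. FRE1 at −1.60, CTR1 at −1.66 and TIS11 at −2.61, genes of iron and copper handling, complete the set, and in these 3 the inactive thione had no call against DMSO.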

How the results depend on the processing

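The genes that passed in a comparison kept the direction of that difference under every alternative run. Drug pump and regulator genes near 0, such as YRM1 and TPO3, changed sign under several, RLE scaling and DESeq2 among them, without passing. Counts moved more. Against DMSO, 9 features passed (8 higher, 1 lower), and the same 9 passed with RLE scaling. DESeq2 gave 84 (69 and 15). Leaving out 1 library at a time gave 1 to 18 features (1 to 17 higher, 0 to 1 lower); the lone library of a group is then assumed to vary like the others. A fit of the 4 compared libraries gave 9, of which 7 were among the main 9. Against the active thione 7 passed (2 higher, 5 lower). DESeq2 gave 27 (12 higher, 15 lower), left-out libraries 3 to 10 (1 to 3 higher, 2 to 7 lower), and the compared libraries alone 5 (1 higher, 4 lower). The cause of these shifts was not tested.

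The labels number replicates 1 and 2 in each group without saying what they share. Same-numbered libraries deviated together between the inactive thione and DMSO (r = 0.43), the inactive and active thione (0.331) and the active thione and DMSO (0.394), but not between CQ and the inactive thione (−0.0864) or CQ and DMSO (−0.153). With 2 libraries a group and no label for what a number marks, a pairing was not established, and the fit without it is the one reported. With the replicate block, 54 features passed against DMSO (48 higher, 6 lower) and 13 against the active thione (4 higher, 9 lower). PHO5, CWP1 and TPO4 then passed against DMSO, at adjusted p of 0.0318, 0.0286 and 0.04999. Counts per gene list without each active thione or CQ library were added after seeing the data.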

Other observations

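Some gene groups outside the comparisons above had members called by DESeq2 only. In the nitrogen catabolite list (25 tested, median 0.22), edgeR called 0 and DESeq2 called 5 higher, beside 1.26% of all features. Among the 5 was DAL80, a repressor of nitrogen genes. DAL80 had 21.4 and 22.6 CPM with the inactive thione and 10.4 and 11.0 CPM with DMSO, a log2 difference of 1.04 ± 0.20 with an edgeR adjusted p of 0.116. MEP1, an ammonium permease, had 116 and 151 CPM with the inactive thione and 65.9 and 77.5 CPM with DMSO. In the calcineurin list (15 tested, median 0.36) edgeR called 0 and DESeq2 called 3 higher, beside the same 1.26%. CMK2, a calmodulin-dependent kinase, had 103 and 132 CPM with the inactive thione and 49.4 and 43.2 CPM with DMSO, with an edgeR adjusted p of 0.0571. ENA1, a sodium pump, had 17.5 and 25.7 CPM with the inactive thione and 7.83 and 8.52 CPM with DMSO, with an edgeR adjusted p of 0.194. OPT1, an oligopeptide and glutathione transporter, was on the lower side, at 6.23 and 7.66 CPM with the inactive thione and 17.5 and 15.7 CPM with DMSO, with an edgeR adjusted p of 0.164. Of all 40 lists, 35 had no edgeR call, and 18 of these 35 had a DESeq2 call.

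Over the 8 libraries, the features whose log2 CPM followed AZR1 most closely were TNA1 (Pearson r = 0.942), MAM1 (0.904), YPR071W (0.889), CWP1 (0.888) and YOR1 (0.874). These correlations describe 8 libraries of 4 groups, with AZR1 high in 1 group alone, and carry no test.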
